A study of Drosophila melanogaster with 4 samples.

Results

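The 9 genes described here mark the blood cells (haemocytes) of Drosophila melanogaster or the clot those cells help to build, and they were read in wing imaginal discs of third-instar larvae. They were chosen by symbol, as PPO1, PPO2, srp, NimC1, NimC2, Hml, Pxn, crq and fon, and all 9 were found among the 15222 gene features counted. PPO1 carries an older gene identifier in the count files and was found by its transcript identifier, the other 8 by gene identifier. Discs had been dissected by hand out of wandering larvae, and 2 libraries of their total RNA were made for wild type and 2 for wtsP2, both of strain yw. wtsP2 is an allele of warts (wts), the gene of the kinase that restrains the growth coactivator Yorkie. The labels give neither the zygosity of the allele, nor how many discs went into a library, nor whether libraries came from separate collections of larvae, so p-values measure only the spread between these libraries, which may be technical.

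Larval blood contains plasmatocytes, which engulf microbes and dying cells, and a smaller number of crystal cells, which store prophenoloxidases and release them when a wound has to be melanized. Lamellocytes, a flat cell type that encapsulates large intruders, are rare in unchallenged larvae. Haemocytes also sit on tissues in the body cavity, imaginal discs included, so discs dissected by hand can carry them. In bulk RNA, fewer cells of a type and less RNA per cell cannot be told apart.

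Library totals were 2112468 and 696952 counts in the wild-type pair and 3520970 and 3846682 in the wtsP2 pair. The 9 genes together took 0.0986% and 0.124% of the counts in the wild-type libraries and 0.0207% and 0.0281% in the wtsP2 libraries. Set at 3 counts, the detection floor was 1.42 and 4.30 CPM (counts scaled to a common library total) in the wild-type pair and 0.852 and 0.780 CPM in the wtsP2 pair, which covers counting error only. Over 7278 tested genes (no independent replicates) the correlation of log2 CPM was 0.537 within the wild-type pair and 0.848 within the wtsP2 pair. The wing disc list (vg, nub, sd, ap, rn, tsh) was detected in full. Its summed levels were 1867 and 2068 CPM in the wild-type pair and 1982 and 1876 CPM in the wtsP2 pair. Its single genes moved in both directions. Of the 6, 2 lay lower in both wtsP2 libraries, 3 lay higher and 1 overlapped. For example, sd was at 689 and 479 CPM against 452 and 398 CPM, and rn at 62.5 and 91.8 CPM against 276 and 243 CPM. The wts gene itself had 46 and 0 counts in the wild-type pair and 48 and 24 in the wtsP2 pair, too few to check the genotype labels.

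The crystal cell genes PPO1 and PPO2 and the clot gene fon were far lower in both wtsP2 libraries than in either wild-type library. The plasmatocyte genes were mixed, with NimC2 far lower in both wtsP2 libraries, crq lower by a smaller margin, Hml and Pxn overlapping between the groups and NimC1 detected in 1 library of each. Both wtsP2 libraries lay below both wild-type libraries for 6 of the 9 genes (PPO1, PPO2, srp, NimC2, crq and fon), against 16.5% of the tested genes, and above them for 0 of the 9, against 30.3%. None of the 8 members that passed the filter on low counts had an adjusted p under 0.05 in edgeR's quasi-likelihood test, where 0% of all tested genes were lower and 0% higher. At an unadjusted p under 0.05, 5 of the 8 were lower, against 2.65% of the tested genes, and 0 higher, against 9.91%. Both of these counts of lower genes include srp and NimC2, which passed the filter only through their wild-type counts. In the wtsP2 pair srp had 4 and 8 counts and NimC2 had 0 and 2. The members were also chosen with earlier results of these data known, so these shares are descriptive. The groups of 2 libraries cannot give an exact two-sided permutation p below 0.333.

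**Figure D1:**
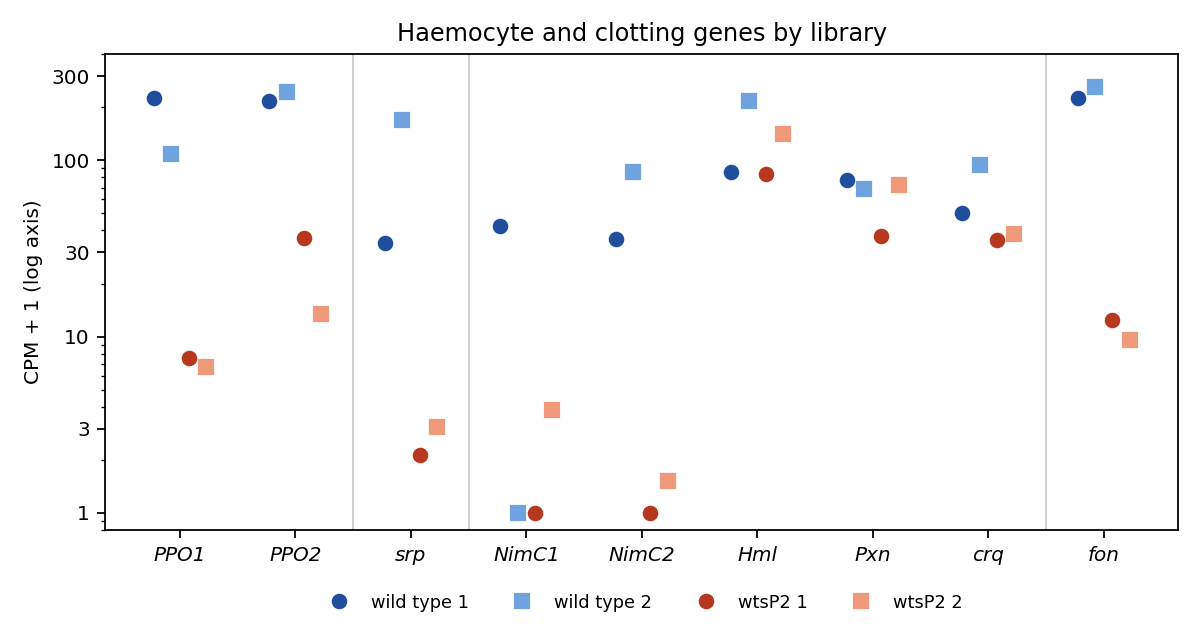
CPM plus 1 (log axis) of the 9 genes in each of the 4 libraries, 1 point per library, with vertical lines between crystal cell genes, srp, plasmatocyte genes and fon. PPO1 lies at 225 and 108 CPM in wild type and at 6.53 and 5.72 CPM in wtsP2, while the points of Hml and Pxn mix between the groups.

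PPO1 and PPO2 encode the prophenoloxidases of crystal cells, the copper enzymes that make melanin at wounds once they are cleaved. PPO1 (FBgn0261362; chromosome 2R, 13774718 to 13777477, minus strand, build BDGP5 as in the count files) had 475 and 75 counts in the wild-type pair and 23 and 22 in the wtsP2 pair. That is 166 ± 82.9 CPM (SD, n = 2) in wild type against 6.13 ± 0.575 CPM in wtsP2. The wild-type libraries differed from each other by 2.09-fold and the wtsP2 libraries by 1.14-fold, and the groups stood well apart. The fitted log2 fold change was -4.69 ± 0.82 (SE; edgeR adjusted p = 0.368), or 25.8-fold lower, and 57 of the 7278 tested genes had a value that low or lower. Leaving out the first wild-type library moved it to -3.94, and leaving out the second moved it to -5.14. In the first wild-type library all 6 exons of PPO1 had more than 10 reads, and in each of the other 3 libraries 1 exon had. PPO1 lies inside the span of Elk, a potassium channel gene on the other strand, which was listed at 0 counts in all 4 libraries.

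PPO2 (FBgn0033367; chromosome 2R, 4929765 to 4932213, minus strand) had 456 and 169 counts in the wild-type pair and 124 and 48 in the wtsP2 pair. Its level was 229 ± 18.8 CPM in wild type and 23.8 ± 16.1 CPM in wtsP2. The wild-type libraries were close to each other for this gene, and the first wtsP2 library was 2.82-fold above the second. Its fitted log2 fold change was -3.18 ± 0.68 (edgeR adjusted p = 0.368), or 9.05-fold lower. It moved to -4.01 without the first wtsP2 library and to -2.63 without the second, with no change of direction. No feature overlaps PPO2 in the count files.

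The ratio of PPO1 to PPO2 counts was 1.04 and 0.444 in the wild-type pair and 0.185 and 0.458 in the wtsP2 pair. The second library of each group thus had nearly the same ratio, and no shift between the groups stood out from the spread within them. The third prophenoloxidase gene, PPO3, which is used by lamellocytes, had no counts in wild type or in the first wtsP2 library and 27 in the second wtsP2 library.

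Of the other 3 genes of the crystal cell list, 2 had few counts and klu lay lower in both wtsP2 libraries by a small margin. The Runx factor gene lz (lozenge), which specifies crystal cells, was listed at 0 counts in all 4 libraries. A second counting of the same libraries was recovered from the authors' deposited group means. There lz had 1 and 6 reads in the wild-type pair and 9 and 8 in the wtsP2 pair. The zinc finger gene peb had 15 counts in the second wtsP2 library and none elsewhere. Another zinc finger gene of the list, klu, had 130 and 51 counts in the wild-type pair and 179 and 135 in the deeper wtsP2 pair, or 61.5 and 73.2 CPM against 50.8 and 35.1 CPM. Its log2 fold change was -0.55 ± 0.88 (edgeR adjusted p = 0.967). Of the 5 listed genes 3 were tested, and 0 passed in either direction.

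Plasmatocyte genes differed among themselves. Of 8 listed, 5 were tested with 0 called in either direction, and their median log2 fold change was -0.31 beside 0.24 for all tested genes. Hml (hemolectin; FBgn0029167; chromosome 3L, 13839154 to 13853113, plus strand), a large secreted protein of plasmatocytes that takes part in clotting, had 179 and 150 counts in the wild-type pair and 290 and 537 in the wtsP2 pair. In CPM these were 84.7 and 215 in the wild-type pair and 82.4 and 140 in the wtsP2 pair (means 150.0 ± 92.3 and 111 ± 40.5). The groups overlapped, with the second wild-type library highest and the first wtsP2 library lowest. Fitted, this gave -0.28 ± 0.63 (edgeR adjusted p = 0.980), and its sign depended on the libraries used, from -0.76 without the second wtsP2 library to 0.46 without the second wild-type library. Of the 26 exons of Hml, 4 and 3 had more than 10 reads in the wild-type pair and 9 and 11 in the wtsP2 pair.

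Pxn (peroxidasin; FBgn0011828; chromosome 3L, 2601450 to 2630072, minus strand) encodes a matrix peroxidase that haemocytes secrete into basement membranes. It had 162 and 47 counts in the wild-type pair and 128 and 276 in the wtsP2 pair. Its level was 72.1 ± 6.54 CPM in wild type and 54.1 ± 25.03 CPM in wtsP2, and the second wtsP2 library lay between the wild-type libraries. On the log2 scale the fitted difference was -0.31 ± 0.84 (edgeR adjusted p = 0.982), and 0.16 without the first wtsP2 library.

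The croquemort gene crq (FBgn0015924; chromosome 2L, 448254 to 453023, minus strand) encodes a CD36-family receptor with which plasmatocytes take up dying cells. It had 104 and 65 counts in the wild-type pair and 120 and 143 in the wtsP2 pair, or 49.2 and 93.3 CPM against 34.1 and 37.2 CPM. Both wtsP2 libraries lay below both wild-type libraries, but the gap between the groups was smaller than the gap within wild type. Its log2 fold change was -0.87 ± 0.94 (edgeR adjusted p = 0.927). The last 448 bases of crq (448254 to 448701) overlap the end of expanded (ex), a Hippo pathway gene on the opposite strand, which had 666 and 191 counts in the wild-type pair and 6301 and 5900 in the wtsP2 pair. The strand setting is not given in the sources used here, so how many reads of ex were counted as crq is not known. In the second counting crq had 143 and 65 reads in the wild-type pair and 121 and 173 in the wtsP2 pair. Its log2 fold change there was -0.87 ± 0.81.

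NimC1 and NimC2 encode Nimrod receptors, transmembrane proteins with repeated EGF-like modules, and NimC1 is a phagocytosis receptor used as a general plasmatocyte marker. The genes stand 3392 bases apart on chromosome 2L, on opposite strands, with 1 other feature between them. NimC1 (FBgn0259896; 13974117 to 13976753, minus strand) had 88 and 0 counts in the wild-type pair and 0 and 11 in the wtsP2 pair. It was thus seen in 1 library of each group and did not pass the filter on low counts. NimC2 (FBgn0028939; 13980146 to 13982952, plus strand) had 73 and 59 counts in the wild-type pair and 0 and 2 in the wtsP2 pair, with no overlap between the groups. Summed over each group and scaled to depth, its wild-type level was 173 times that in wtsP2, with an exact 95% counting interval of 47.0 to 1444 that leaves out the spread between libraries. The fitted log2 fold change of -7.41 ± 2.38 (edgeR adjusted p = 0.368) rests on 2 counts in wtsP2 and moved between -9.89 and -6.49 as single libraries were left out. In each wild-type library 1 of the 5 exons of NimC2 held more than 10 reads, and in wtsP2 none did. The last 227 bases of NimC2 overlap rk on the opposite strand, which had 0 and 0 counts in the wild-type pair and 12 and 45 in the wtsP2 pair. How reads in that overlap were counted is not known.

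Other receptor genes of this family were patchy. Of 17 listed Nimrod and scavenger receptor genes, 5 were tested, with 0 called in either direction, and NimA, NimB1, NimC3, NimC4 and Sr-CIV were listed at 0 in all libraries. Hemese (He), a surface glycoprotein gene of all haemocytes that stands in the same Nimrod cluster, had 154 counts in the first wild-type library and 0 in the other 3. NimB4 of the same cluster (20 counts) and the scavenger receptor gene Sr-CI (26 counts) also appeared in the first wild-type library alone. NimB3 of the cluster appeared in the second wild-type library alone, with 45 counts. At the depth of the second wild-type library, the level of He in the first would have given 50.8 counts, that of NimC1 29.0 and that of Sr-CI 8.58. The phagocytosis receptor gene eater had 34 and 0 counts in the wild-type pair and 31 and 17 in the wtsP2 pair, and drpr (draper), an engulfment receptor that other tissues also use, had 164 and 26 in the wild-type pair and 455 and 666 in the wtsP2 pair. For drpr the fitted difference was 1.46 ± 0.65 on the log2 scale (edgeR adjusted p = 0.473).

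Serpent (srp; FBgn0003507; chromosome 3R, 11811923 to 11829803, plus strand) is the GATA transcription factor that haemocytes and the fat body both need. It had 70 and 117 counts in the wild-type pair and 4 and 8 in the wtsP2 pair, or 33.1 and 168 CPM against 1.14 and 2.08 CPM. The groups stood apart although the wild-type libraries differed from each other by 5.07-fold. The log2 fold change was -5.75 ± 1.48 (edgeR adjusted p = 0.368), with -6.46 when the first wild-type library was left out and -4.26 when the second was. The size of the difference also depended on the counting. In the second counting srp had 74 and 131 reads in the wild-type pair and 16 and 38 in the wtsP2 pair. Its log2 fold change there was -3.69 ± 1.23. The authors' deposited group means of srp were 214 and 14.8 normalized counts.

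Of the 8 listed regulators of the blood lineage, srp and Pvr had both wtsP2 libraries below both wild-type libraries, and the other 6 overlapped or were listed at 0. The Friend of GATA gene ush had 103 and 108 counts in the wild-type pair and 190 and 90 in the wtsP2 pair (log2 fold change -1.26 ± 0.94). Pvr, the receptor through which haemocytes receive survival signals and which discs also express, was at 278 and 264 CPM in the wild-type pair and 152 and 199 CPM in the wtsP2 pair (log2 fold change -0.53 ± 0.40). Whether these differences differ from that of srp was not tested. The EBF factor gene kn (collier), needed for lamellocytes and also for wing vein patterning, was at 1.09 ± 1.15. Among the 8 regulators 5 were tested, with 0 called in either direction, and gcm and lz were listed at 0.

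Fondue (fon; FBgn0032773; chromosome 2L, 19383387 to 19386202, minus strand) is a clot protein that is crosslinked when haemolymph sets, made by the fat body as well as by haemocytes. It had 475 and 180 counts in the wild-type pair and 40 and 33 in the wtsP2 pair. Its level was 242 ± 23.6 CPM in wild type and 9.97 ± 1.97 CPM in wtsP2, with libraries close to each other in both groups. The log2 fold change was -4.49 ± 0.54 (edgeR adjusted p = 0.256), or 22.5-fold lower. Its p-value was the smallest of the 8 tested members and the 9th smallest of all tested genes. In the second counting the log2 fold change was -3.82 ± 0.73. There fon had 480 and 99 reads in the wild-type pair and 56 and 34 in the wtsP2 pair.

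Other clotting and melanization genes went different ways. Tg (transglutaminase), the enzyme that crosslinks the clot, had no counts in the wild-type pair and 22 and 28 in the wtsP2 pair. Against a floor of 3 counts over the wild-type group it was at least 6.36-fold higher, a bound that covers counting error only. The serpin genes Spn27A and Spn77Ba, whose products hold melanization in check, were at log2 fold changes of 0.95 ± 0.74 and 0.63 ± 0.72. Of the 9 listed genes of the melanization cascade 7 were tested, with 0 called in either direction. PPO1 and PPO2 had the lowest fitted log2 fold changes of these 7.

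**Figure D2:**
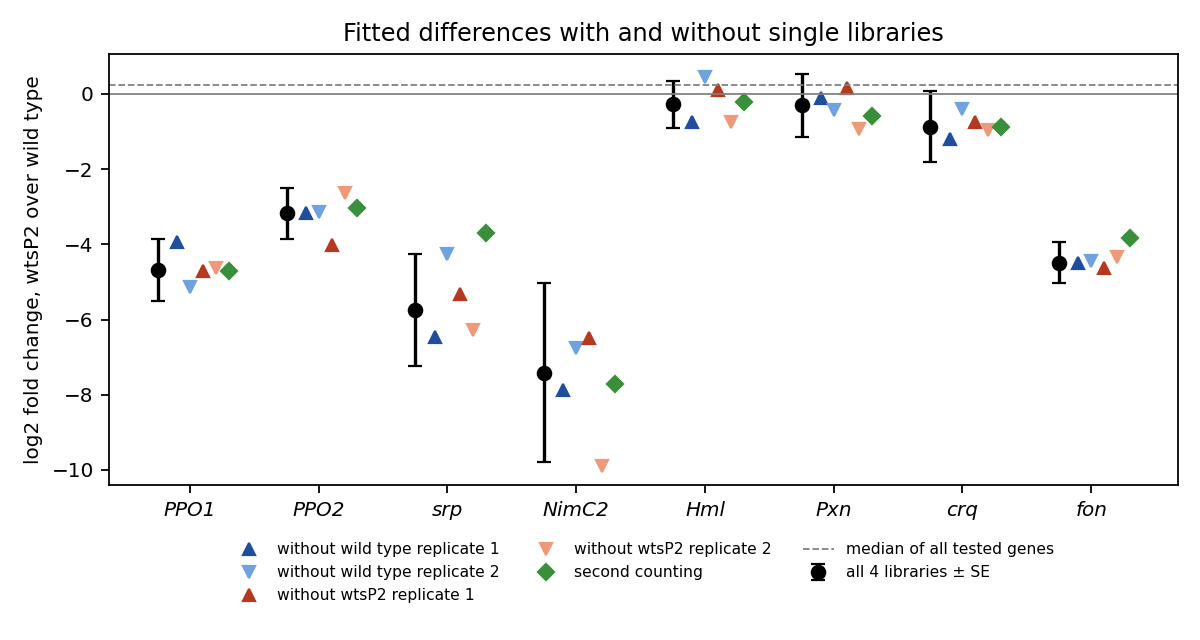
Log2 fold change (wtsP2 over wild type) of the 8 tested genes with all libraries (black, ± SE), with each library left out in turn, and from the second counting; the dashed line is the median of all tested genes. PPO1, PPO2, srp, NimC2 and fon stay below -2 in all fits drawn here, while Hml and Pxn scatter around 0.

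Levels can be set beside each other between genes by the RPKM values of the files (reads scaled to gene length and library total). In wild type the order of mean RPKM was fon (121), PPO2 (102), PPO1 (72.1), crq (25.4), NimC2 (24.4), srp (18.4), Hml (12.9), Pxn (12.1) and NimC1 (10.4). In the wild-type libraries fon (113 and 130) lay above PPO2 (96.2 and 108), and PPO2 was not separated from PPO1 (97.5 and 46.6). From crq downwards neighbours in this order overlapped between libraries. In wtsP2 the order was crq (12.7), PPO2 (10.6), Hml (9.59), Pxn (9.08), fon (5.0), PPO1 (2.66), NimC1 (0.710), srp (0.295) and NimC2 (0.105). Neighbours among the first 4 of these overlapped between libraries. Among the genes ordered here, PPO1, PPO2 and fon stood above every plasmatocyte gene in both wild-type libraries. In wtsP2 this held for PPO2 in the first library (15.7 RPKM) and for none of the 3 genes in the second.

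Set side by side within each library, PPO1 and PPO2 took a smaller share of the blood cell counts in wtsP2. This measure does not depend on scaling between libraries. It leaves out klu of the crystal cell list (130 and 51 counts in wild type, 179 and 135 in wtsP2). Of the plasmatocyte list it leaves out He, eater and Sr-CI. In wild type He had 154 and 0 counts, eater 34 and 0, and Sr-CI 26 and 0. In wtsP2 eater had 31 and 17 counts and the others none. Counting these genes would lower the share in the first wild-type library. PPO1 and PPO2 together made up 60.6% of the counts of PPO1, PPO2, NimC1, NimC2, Hml, Pxn and crq in the first wild-type library (exact binomial 95% interval 58.1% to 63.0%) and 43.2% in the second (39.1% to 47.4%). In wtsP2 the shares were 21.5% (18.4% to 24.7%) and 6.74% (5.29% to 8.44%). Both wtsP2 libraries lay below both wild-type libraries. The intervals of the libraries within each group did not overlap either, but they take reads as independent. Reads were unevenly spread over exons, as for PPO1 above, so the intervals may be too narrow. As a ratio of crystal cell to plasmatocyte counts the means were 1.15 ± 0.549 (SD, n = 2) and 0.173 ± 0.142. Without crq, whose end overlaps ex, they were 1.40 and 0.218, and in the second counting 0.954 and 0.169. The difference between the groups was not tested, as the genes were chosen with results of these libraries known.

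**Figure D3:**
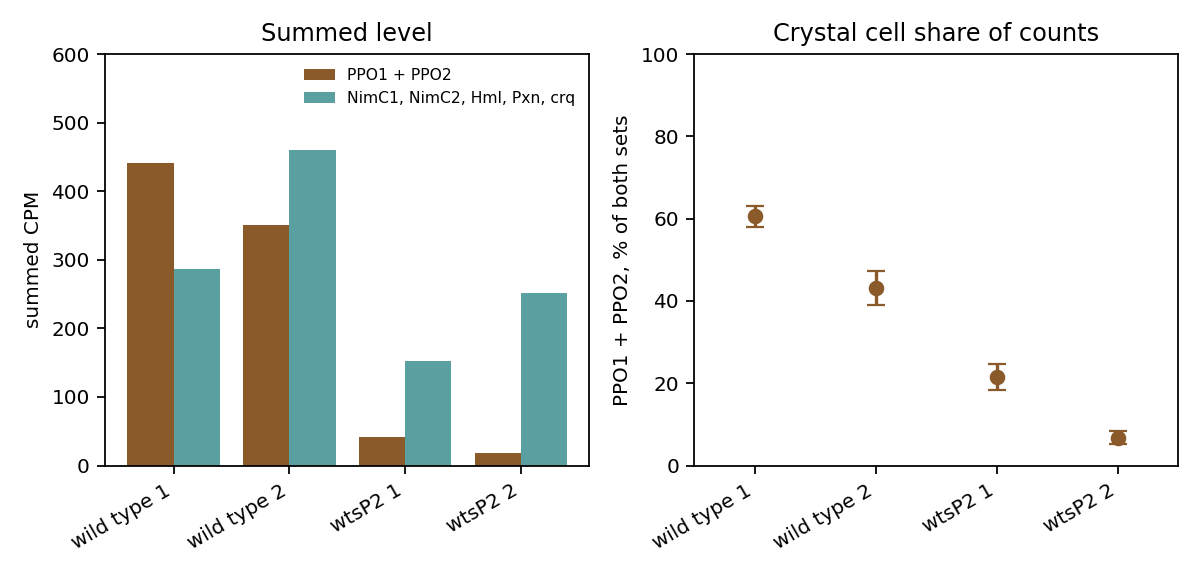
Left, summed CPM of PPO1 and PPO2 (brown) and of 5 plasmatocyte genes (teal) in each library. Right, the share of PPO1 and PPO2 in the counts of all 7 genes, with exact binomial 95% intervals that cover counting error only. These intervals take reads as independent. The share runs from 60.6% and 43.2% in wild type to 21.5% and 6.74% in wtsP2.

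Summed levels split the same way. PPO1 and PPO2 together came to 441 and 350.1 CPM in the wild-type pair and 41.7 and 18.2 CPM in the wtsP2 pair. The 5 plasmatocyte genes came to 287 and 461 CPM in the wild-type pair and 153 and 252 CPM in the wtsP2 pair. The wtsP2 sums were below the wild-type sums in each set, by a wider margin for PPO1 and PPO2. The gene sets are small, and their values rest on few genes.

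Markers of other tissues moved with these genes. The 9 fat body genes summed to 19445 and 19845 CPM in the wild-type pair and 953 and 1352 CPM in the wtsP2 pair, and 8 of them lay lower in both wtsP2 libraries than in either wild-type library. The storage protein gene Lsp1gamma was at a log2 fold change of -4.41 ± 0.37 (edgeR adjusted p = 0.142), beside -4.49 for fon and -4.69 for PPO1. The 9 salivary gland genes summed to 505 and 406 CPM against 4.83 and 1.30 CPM, with ng1 and ng2 listed at 0. The 8 muscle and myoblast genes summed to 270 and 537 CPM against 103 and 106 CPM, with Mlc1 and up listed at 0. The myoblast factor gene twi of this list was on the other side, with no counts in the wild-type pair and 80 and 79 in the wtsP2 pair. Against 3 counts over the wild-type group it was at least 20.2-fold higher, for counting error only. As for Tg, how many tested genes share this pattern was not counted. Tracheal genes were on the other side, with 6 genes summing to 822 and 1241 CPM against 3457 and 3605 CPM. Most of each sum came from verm, serp, pio and uif, and whether their reads came from trachea was not tested. For 5 of these 6 genes each wtsP2 level exceeded each wild-type level, and the exception was the FGF receptor gene btl, at 12.8 and 138 CPM in the wild-type pair and 13.1 and 17.4 CPM in the wtsP2 pair. The 5 neuron and glia genes summed to 88.0 and 61.7 CPM against 122 and 98.0 CPM, with nSyb listed at 0. The part of fat body or other tissue in the values of fon, srp, PPO1, PPO2 and NimC2 was not tested.

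Matrix genes that haemocytes and the fat body secrete did not form a block. All 10 were tested, with a median log2 fold change of 0.04 beside 0.24 for all tested genes, and 0 were called in either direction. Glt (glutactin) was at -2.72 ± 0.91 and SPARC, a collagen-binding protein gene, at -1.86 ± 0.41, both chosen after their values were seen. The laminin genes LanB1 and LanA, which disc cells also express, were at 1.58 ± 0.38 and 0.66 ± 0.35. The collagen IV gene vkg was at -0.92 ± 0.65 and its partner Col4a1 at 0.38 ± 1.87, likewise chosen after their values were seen.

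Lamellocyte markers were few. The surface protein gene atilla had 6 and 0 counts in the wild-type pair and 0 and 40 in the wtsP2 pair, and the integrin gene ItgaPS4 had 17 and 0 against 0 and 21, without separation of the groups. The receptor gene mthl4 had no counts in the wild-type pair and 24 and 36 in the wtsP2 pair. That is at least 7.63-fold higher against 3 counts over the wild-type group, again for counting error only. Here too the number of tested genes with this pattern was not counted. The filamin gene cher, which lamellocytes express strongly and many other tissues also express, had 582 and 310 counts in the wild-type pair and 7024 and 7377 in the wtsP2 pair (log2 fold change 2.56 ± 0.37, edgeR adjusted p = 0.347). It held most of the list's summed CPM in every library. Of the 5 listed genes 3 were tested, with 0 called.

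**Figure D4:**
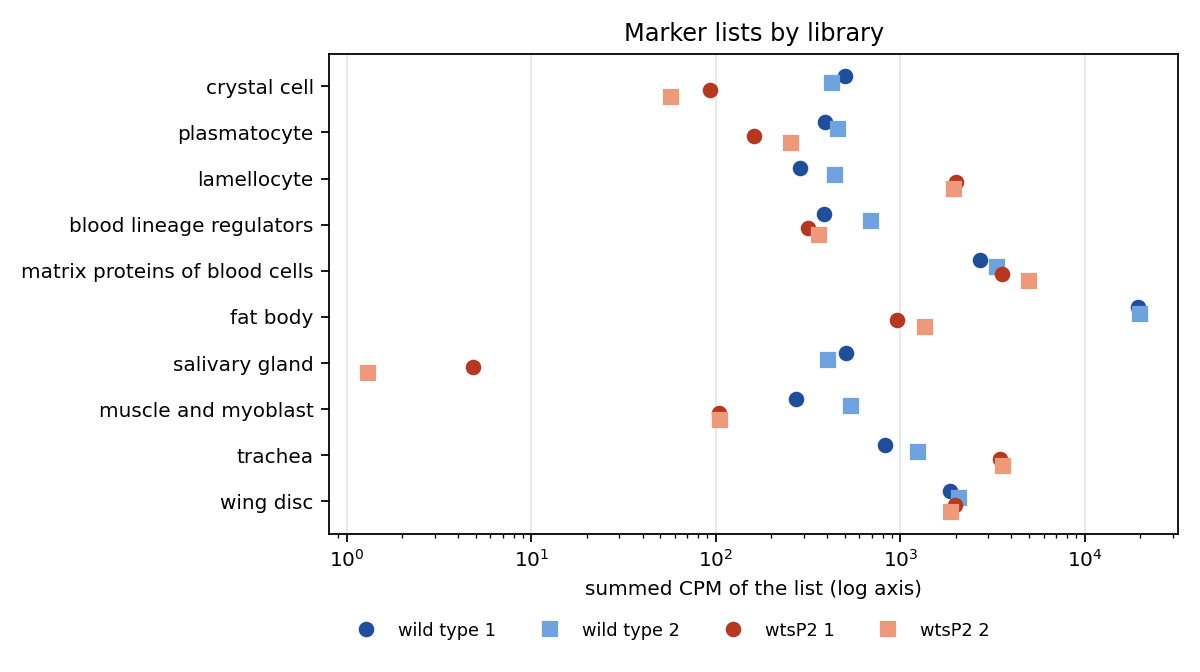
Summed CPM (log axis) of 10 marker lists in each of the 4 libraries. The fat body, salivary gland, muscle, crystal cell, plasmatocyte and blood lineage regulator sums lie lower in both wtsP2 libraries. The tracheal, lamellocyte and matrix protein sums lie higher. The wing disc sums lie between 1867 and 2068 CPM in all 4 libraries. Within that list 2 of the 6 genes lie lower in both wtsP2 libraries and 3 lie higher.

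The profiles most like that of PPO2 and of Hml were sought among the 7278 tested genes, by the root mean square difference of log2 CPM over the 4 libraries after centring each gene. For PPO2 these were the mitochondrial ribosomal protein gene mRpL18 (difference 0.165), the respiratory complex III gene ox (0.244) and VhaM9.7-c, for a small subunit of the vacuolar proton pump (0.320). For Hml they were Cyp309a2 (0.0783), cta (0.0844) and CG18659 (0.0943). None of these is a blood cell marker of the lists used here.

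Other settings gave calls for some of the genes. DESeq2 called PPO1 (adjusted p = 3.98e-05), PPO2 (0.00562), srp (0.00106), NimC2 (0.00321) and fon (5.19e-08) lower, 5 of 9 where 1.26% of the genes with an adjusted p were. Limma-voom called NimC2 alone of these (adjusted p = 0.0421), where 0.371% of the genes were called lower. Without the first wild-type library edgeR called 5 of 8 members lower against 8.53% of genes, and without the second 6 of 9 against 5.67%. The 5 were the same genes as in DESeq2, and the sixth was NimC1 (adjusted p = 0.0240). Without either wtsP2 library 0 of 9 were called, against 0.179% and 0.193% of genes. Where a wild-type library is left out, the spread comes from the wtsP2 pair alone and the lone wild-type library is taken to share it. Without the filter, PPO1 (0.0370) and fon (0.00437) were called, 2 of 9 against 0.171% of genes. With the replicate number as a block, PPO1, PPO2 and fon were called, 3 of 8 against 0.522%. Whether the numbers pair the libraries is not known. In no setting was Hml, Pxn or crq called.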

How the data were processed

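Libraries were prepared with a SOLiD kit for total RNA, per the labels' protocols. The authors deposited 1 file per library with read counts per gene feature, and RPKM values computed from them, per the file headers. HTSeq, DESeq and builds BDGP5 and dm3 are named in the submitters' processing notes; aligner, strand setting and counting tool: all not given in the sources used here. A table of the series holds group means of counts divided by size factors, a normalized signal made by the authors (DESeq, per the file headers), and their ratio (fold) of those means. Each of the 8286 and 9875 means above 0 split into whole reads of 2 libraries (relative tolerance 1e-08), which gives a second counting. Its libraries carry a group and no number. They are listed in the order of the numbered libraries whose counts they resemble, as for PPO2 in wtsP2 (129 and 48 against 124 and 48). The totals of the second counting differ from those of the files (2182209 and 883315 in wild type, 3787881 and 4248979 in wtsP2).

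Symbols came from the reference annotation by gene identifier (14346 features) or transcript identifier (420). The counts as deposited went into edgeR 4.0.16 (R 4.3.3; filterByExpr, 7278 of 15222 features kept; TMM; robust quasi-likelihood F test; Benjamini-Hochberg over all tested genes; threshold 0.05). Each SE divides the log2 fold change by the root of F. The procedure was also run on simulated counts, whose outcome is not given here. In these data the common coefficient of variation within groups, beyond counting error, was 92.8%. At that spread, 0 calls do not show that levels are equal. Members and lists were chosen with earlier results of these data known. All 9 members could be named, with wts, ex, the 4 highest genes of each list by mean CPM, called genes and the 3 nearest profiles of PPO2 and Hml; genes named outside this rule (lz, He, Sr-CI, NimB4, eater, PPO3 and genes listed at 0 among them) were chosen after their values were seen. Alternatives were other scalings and filters, DESeq2 1.42.0, limma-voom (limma 3.58.1), a replicate block, each library left out and the second counting.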

Additional observations from a re-analysis of the deposited data

How the results depend on the processing

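With all libraries, edgeR called 0 genes higher and 0 lower (721 and 193 at an unadjusted p under 0.05), and the count stayed at 0 under RLE, upper quartile or total-count scaling, under the stricter filter and in the second counting. Without a filter 21 genes were higher and 16 lower, 2 of them members (PPO1 and fon). DESeq2 called 99 and 86 with 5 members, and limma-voom 123 and 27 with 1 member. Leaving out a library gave 3 to 2514 genes higher, 14 to 681 lower and 0 to 6 members. Whether same-numbered libraries belong together is not given, and their deviations correlated at 0.00581 across genes. The replicate block called 69 and 38 with 3 members (PPO1, PPO2 and fon). PPO1, PPO2, srp, NimC2, crq and fon kept their direction in every fit that tested them. Hml ran from -0.76 to 0.46 as single libraries were left out (0.46 without wild type replicate 2, 0.11 without wtsP2 replicate 1) and was at 0.070 in limma-voom. Pxn ran from -0.93 to 0.16, and the wts gene from -1.09 to 7.75, with 1.74 under the block and 2.51 in limma-voom. The cause was not tested. The ratio of crystal cell to plasmatocyte counts moved by less than 1 SD in either alternative. Without wild type replicate 1 the median of all genes was 1.33. The depth of the second wild-type library, 696952 counts, limits genes near its floor of 4.30 CPM. Zeros in that library also reached genes far above the floor. Aptx and Adk2 were at 160 and 130 CPM in the first wild-type library and at 0 in the second. The reason was not tested.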
